A study of Mus musculus with 8 samples.

Results

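Heat shock proteins and their DnaJ partners form the chaperone system that folds, refolds and moves other proteins. The set described here holds 66 genes, 25 named Hsp and 41 named Dnaj, of the 22180 genes measured. The members were chosen by symbol: genes of the Hspa, Hspb, Hspd, Hspe, Hsph and Hsp90a series and of the Dnaja, Dnajb and Dnajc series, without pseudogenes, each read from the array row of highest mean. Rows that carry several gene symbols were left out, so Dnaja1, Dnajb8, Dnajc17, Dnajc19 and Hspb2 were not analysed here, and neither was Hsp90ab1.

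Total RNA of hepatic macrophages was measured on 8 arrays, 4 in each of 2 groups. Male FVB/N mice of 8 weeks received recombinant transferrin (rTF, 25 µg) or recombinant CPS1 (rCPS1, 50 µg) by tail vein, and 12 h later an intraperitoneal dose of acetaminophen (350 mg/kg), a liver toxicant in overdose. CPS1 is carbamoyl phosphate synthetase 1, which hepatocyte mitochondria use to start the urea cycle, and transferrin carries iron in plasma. Both groups therefore received acetaminophen, and the injected protein and its amount differed together. Each sample title reads Mouse1, so it is not settled that a group's 4 replicates are 4 mice. The p-values therefore rest on a spread between arrays that may be technical only. The values are log2 levels after robust multi-array averaging (RMA), and array medians lay between 3.55 and 3.68.

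The DnaJ proteins, also called Hsp40, bind unfolded clients and pass them to Hsp70 proteins of the Hspa series, while Hsph1 and Hspa4 release the nucleotide from Hsp70 so that the client is let go. Hsp90 acts on late folding intermediates such as kinases and steroid receptors, the small Hspb proteins hold unfolded proteins in solution, and Hspd1 with its lid Hspe1 forms the folding chamber of mitochondria. Heat, oxidants or damaged proteins release heat shock factor 1 (HSF1), which binds heat shock elements and drives the inducible members. Their constitutive relatives, such as Hspa8 beside Hspa1a and Hspa1b, serve folding in unstressed cells. The comparison asks whether inducible and constitutive chaperone transcripts differ between rCPS1 and rTF.

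Promoter sequences of some members are shown first, from RefSeq (GRCm38.p6), which held 54 of the 66 members. The classes compared were set from a gene list by inducibility, role, compartment or tissue, not from these sequences. A heat shock element was searched as a pair of facing units, GAANNTTC or TTCNNGAA, in the 250 bases before each annotated start. Both words read the same on the other strand, and matches may overlap. At least 1 such pair lay in a promoter of 6 of the 8 inducible genes with an entry (Hspa1a, Hspa1b, Hsph1, Hspb1, Dnaja4 and Dnajb4), of 1 of 5 constitutive genes (Dnajb6), and of 14.5% of all 27025 genes in the promoter table. A match describes the letters only and is no evidence of binding, and no match says only that these letters are not in the window. The minus-strand promoters of Hspa1a (chr17:34972157-34972406) and Hspa1b (chr17:34959239-34959488) differ at 3 of 250 bases, and each holds 1 pair, in capitals, that begins 104 bases before the start:
Hspa1a: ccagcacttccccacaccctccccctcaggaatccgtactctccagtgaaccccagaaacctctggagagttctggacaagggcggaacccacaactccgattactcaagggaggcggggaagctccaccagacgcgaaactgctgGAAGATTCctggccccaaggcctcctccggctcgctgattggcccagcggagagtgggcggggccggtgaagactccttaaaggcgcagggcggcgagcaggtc
Hspa1b: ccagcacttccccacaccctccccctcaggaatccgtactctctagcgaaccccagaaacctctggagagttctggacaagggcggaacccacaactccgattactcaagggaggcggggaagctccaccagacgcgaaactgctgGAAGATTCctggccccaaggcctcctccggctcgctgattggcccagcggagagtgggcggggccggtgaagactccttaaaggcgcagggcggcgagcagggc

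Other inducible genes carry the pair in another setting. The Hsph1 stretch (chr5:149636337-149636409, minus strand, from 1 of its 2 annotated starts) holds 1 pair that begins 33 bases before the start, and the Hspb1 stretch (chr5:135887762-135887869, plus strand) holds 2, in capitals:
Hsph1: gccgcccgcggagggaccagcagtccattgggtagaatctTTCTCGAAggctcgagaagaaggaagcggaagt
Hspb1: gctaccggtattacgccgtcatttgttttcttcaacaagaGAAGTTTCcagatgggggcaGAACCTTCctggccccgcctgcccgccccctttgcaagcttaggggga

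A stricter form with 3 alternating units, GAA, TTC and GAA, each 2 bases apart, was searched on both strands. It contains both pairs and lay in promoters of 3 members and of 0.514% of all genes. The members were Hspd1, Hspe1 and Dnajb6. Hspd1 and Hspe1 lie head to head on chromosome 1 and share the stretch printed here for Hspe1 (chr1:55088019-55088116, plus strand), in which 3 overlapping pairs form 1 run of capitals. Dnajb6 was placed in the constitutive class by its role, and its promoter (chr5:29735812-29735897, plus strand, 1 of 2 starts) holds 2 overlapping pairs:
Hspe1: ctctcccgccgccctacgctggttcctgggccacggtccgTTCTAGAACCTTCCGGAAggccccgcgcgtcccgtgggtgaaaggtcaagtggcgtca
Dnajb6: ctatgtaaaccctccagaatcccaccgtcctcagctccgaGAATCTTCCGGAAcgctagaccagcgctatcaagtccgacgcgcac

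Chaperones of the endoplasmic reticulum answer to another signal, the unfolded protein response. Its element, CCAAT followed after 9 bases by CCACG and searched on both strands, lay in the promoters of 2 of 10 such genes with an entry, Hspa5 and Dnajc3, and of 0.13% of all genes. The matches in Hspa5 (chr2:34771985-34772083, plus strand) and Dnajc3 (chr14:118937787-118937885, plus strand) are in capitals:
Hspa5: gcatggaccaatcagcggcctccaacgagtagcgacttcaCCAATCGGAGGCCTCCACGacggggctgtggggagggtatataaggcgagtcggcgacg
Dnajc3: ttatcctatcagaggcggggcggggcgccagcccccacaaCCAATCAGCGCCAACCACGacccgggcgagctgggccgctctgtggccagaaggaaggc

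No chaperone gene passed the test between rCPS1 and rTF. With limma and Benjamini-Hochberg adjustment over all genes, 0 of 66 members had an adjusted p under 0.05, against 0% of all genes, and the smallest adjusted p of a member was 0.98. At an unadjusted p under 0.05 there was 1 member of 66 (1.52%), against 4.67% of all genes. That member was lower with rCPS1, as were 2.79% of all genes at this threshold, while 0 members and 1.88% of all genes were higher. The groups did not overlap for 1 member (1.52%), against 2.92% of all genes. Exactly 33 members were higher and 33 lower with rCPS1. Their median log2 difference was 0.00019, beside -0.018 over all genes, and the median size of the difference was 0.081, beside 0.11 over all genes. The median standard error of a member's difference was 0.14, so small changes were not detectable with 4 arrays a group. A p that misses the threshold does not show that the groups were equal, and the 95% intervals of the members reached from -0.72 to 1.12.

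**Figure D1:**
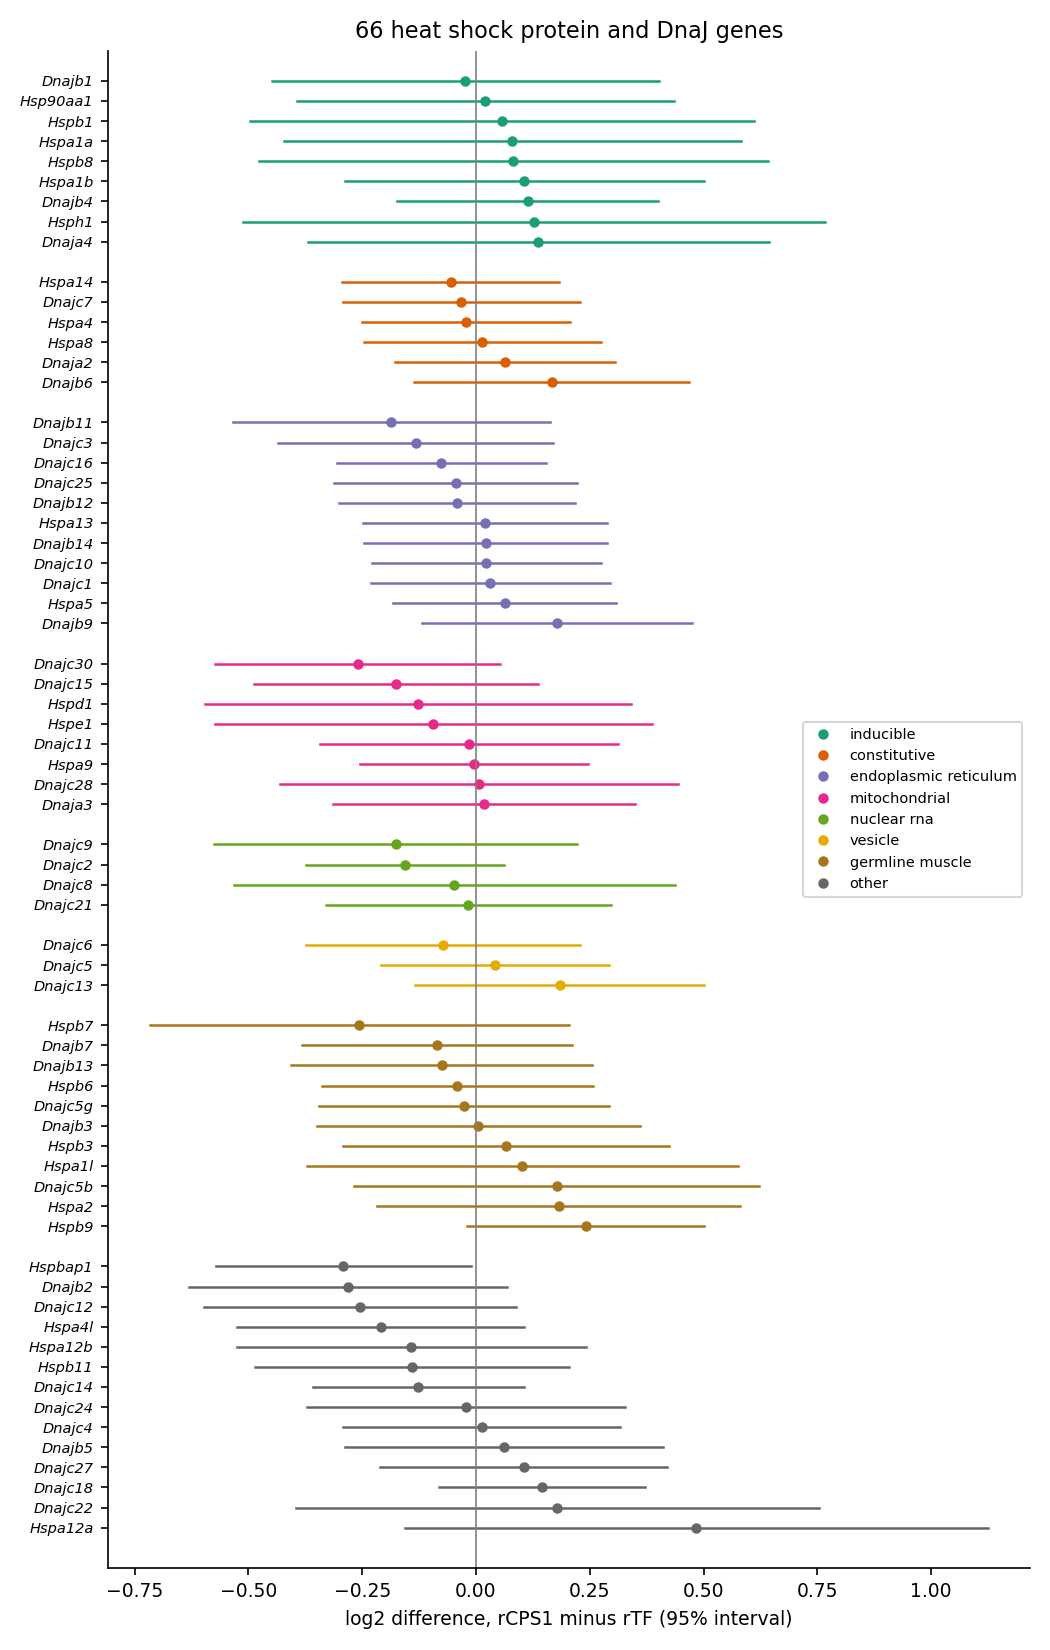
The log2 difference (rCPS1 minus rTF, horizontal axis) of each of the 66 members is drawn as a point with its 95% interval from limma as a line, grouped and coloured by class. The interval of Hspbap1 (-0.57 to -0.011) lies below 0 before adjustment, and Hspa12a has the highest point at 0.48.

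The stress-inducible class was the most variable of the classes in this set rather than the most different between groups. Of its 9 measured members 8 were higher and 1 lower with rCPS1, with a median log2 difference of 0.082, and 0 had an unadjusted p under 0.05. The direction rested on rTF replicate 1: without it 2 were higher and 7 lower, with a median of -0.11. Hspa1a (probe set 17344132), the inducible cytosolic Hsp70, read 9.20, 10.22, 10.05 and 9.80 in rTF replicates 1 to 4 and 9.58, 10.15, 9.73 and 10.13 in rCPS1 replicates 1 to 4. The groups overlapped, with rTF replicate 1 below all other arrays. The means were 9.82 ± 0.44 (SD, n = 4) in the rTF arrays and 9.90 ± 0.29 (SD, n = 4) in the rCPS1 arrays, which differ by 0.079 ± 0.23 (SE, adjusted p = 0.988 with limma). Its copy Hspa1b (probe set 17344126) read 11.56, 12.41, 12.22 and 12.20 with rTF and 12.05, 12.31, 12.18 and 12.28 with rCPS1. Again rTF replicate 1 lay lowest, and the difference was 0.11 ± 0.18. The Hspa1a and Hspa1b transcripts are nearly the same, so how the array divides signal between them is uncertain.

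The nucleotide exchange factor of this system showed the widest swing of the inducible genes. Hsph1 (probe set 17455507, Hsp110) read 8.42, 9.79, 9.80 and 9.57 with rTF and 9.33, 9.69, 9.30 and 9.77 with rCPS1. The 8 arrays spanned 1.38 log2 units, or 2.60-fold, most of it between rTF replicate 1 and the rest. Its difference was 0.13 ± 0.29 (SE) over all arrays and -0.20 ± 0.15 without rTF replicate 1, and neither passed. Hsp90aa1 (probe set 17284002), the inducible Hsp90, read 7.85, 8.64, 8.63 and 8.33 with rTF and 8.38, 8.63, 8.18 and 8.33 with rCPS1. The groups overlapped and differed by 0.021 ± 0.19. Dnajb1 (probe set 17502954), the main inducible DnaJ partner of Hsp70, read 8.31, 8.91, 8.80 and 8.29 with rTF and 8.37, 8.95, 8.34 and 8.56 with rCPS1. Replicate 2 was the highest array in each group, and the difference was -0.023 ± 0.19.

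The small heat shock proteins and minor DnaJ genes of the class split into differing patterns. Hspb1 (probe set 17443342), a small chaperone that also guards actin, read 4.91, 5.94, 5.81 and 5.33 with rTF and 5.97, 5.70, 5.13 and 5.43 with rCPS1. Dnaja4 (probe set 17517404) read 5.28, 5.98, 6.16 and 6.16 with rTF and 5.77, 6.47, 5.78 and 6.10 with rCPS1. Both were lowest in rTF replicate 1, and their differences were 0.057 ± 0.25 and 0.14 ± 0.23 (SE). Hspb8 (probe set 17451816), which with Bag3 sends damaged proteins to autophagy, read 6.35, 6.03, 5.44 and 6.19 with rTF and 6.50, 5.99, 6.36 and 5.49 with rCPS1. It did not follow the others: rTF replicate 1 was among its higher arrays, and its lowest values lay in rTF replicate 3 and rCPS1 replicate 4. Dnajb4 varied least, from 4.92 to 5.39 over the 8 arrays, with a difference of 0.11 ± 0.13.

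**Figure D2:**
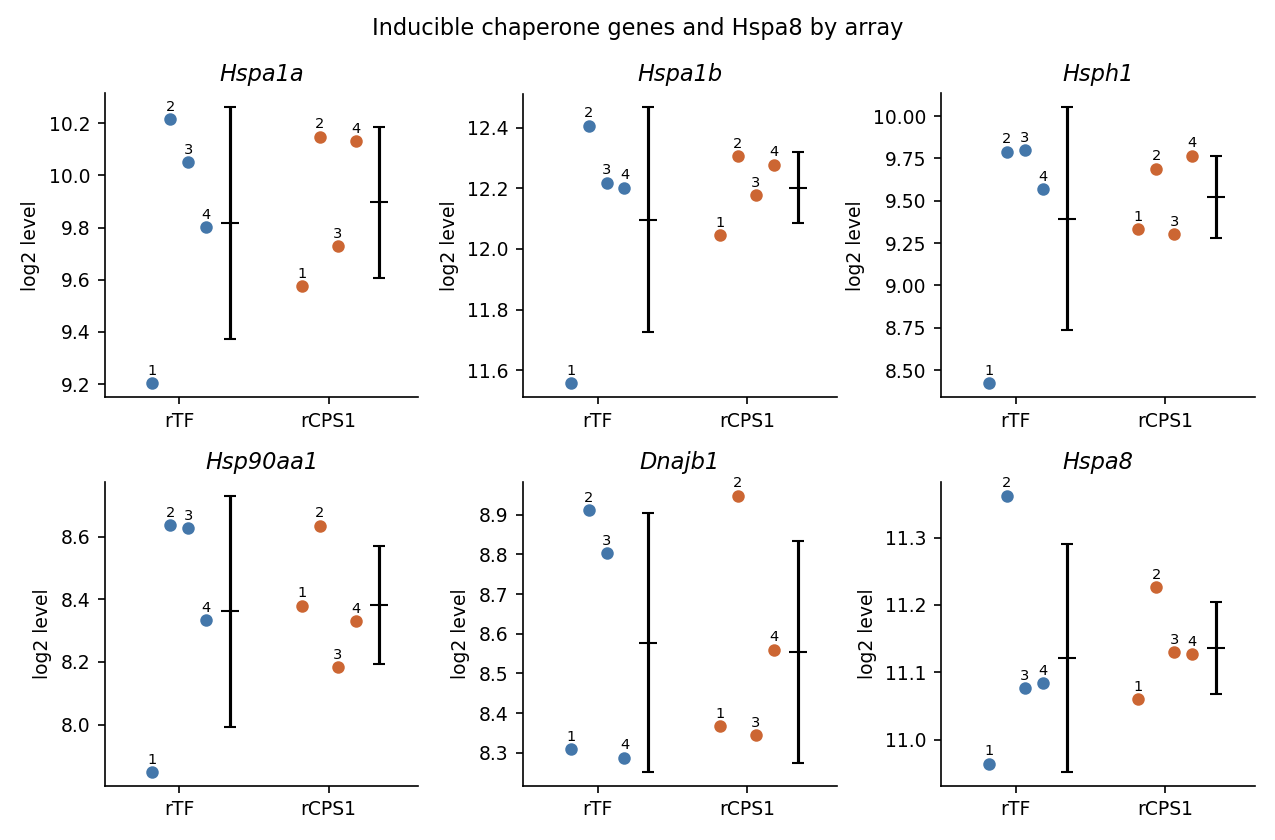
Log2 level (vertical axis, its own scale in each panel) of 5 inducible genes and of the constitutive Hspa8 in the 4 rTF (blue) and 4 rCPS1 (orange) arrays; digits give the replicate number, and the black bar is the mean ± SD. Replicate 1 of rTF is the lowest array for Hspa1a (9.20), Hspa1b (11.56), Hsph1 (8.42), Hsp90aa1 (7.85) and Hspa8 (10.96).

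Constitutive cytosolic chaperones varied little between arrays. Hspa8 (probe set 17516365), the cognate Hsp70 that also strips clathrin from vesicles, read 10.96, 11.36, 11.08 and 11.08 with rTF and 11.06, 11.23, 11.13 and 11.13 with rCPS1, differing by 0.014 ± 0.12 (SE) between groups. Hspa4, an exchange factor related to Hsph1, read 9.76, 9.91, 9.82 and 9.96 with rTF and 9.84, 9.85, 9.92 and 9.76 with rCPS1, a difference of -0.022 ± 0.10. In both genes the groups overlapped, and in Hspa8 the 4 array rows that carry its symbol alone differed between groups by -0.0033 to 0.017. A row that Hspa8 shares with another symbol, left out here, differed by 0.16. Dnaja2, a DnaJ partner of Hspa8, differed by 0.064 ± 0.11, Hspa14, a ribosome-bound Hsp70, by -0.056 ± 0.11, and Dnajc7, which links Hsp70 to Hsp90, by -0.032 ± 0.12. Dnajb6 (probe set 17435702), which holds back aggregating proteins, read 7.33, 7.25, 7.77 and 7.60 with rTF and 7.59, 7.60, 7.77 and 7.66 with rCPS1. It had the largest difference of the class at 0.17 ± 0.14, and its groups overlapped. A dimmer row that Dnajb6 shares with another symbol, left out here, differed by -0.043. Of the 6 measured constitutive genes 3 were higher and 3 lower, with a median difference of -0.0040.

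Set against their constitutive relatives within each array, no inducible gene passed the test between groups. Of 4 planned pairs 3 could be formed, since Hsp90ab1 was not analysed here, and the test of each was exact, permuting the 8 arrays over all 70 assignments (two-sided, smallest possible p 0.0286). The log2 level of Hspa1a minus that of Hspa8 averaged -1.30 ± 0.32 (SD, n = 4) in the rTF arrays and -1.24 ± 0.24 in the rCPS1 arrays, a change of 0.065 (exact p = 0.80, adjusted over the 3 pairs 0.80). Hsph1 minus Hspa4 changed by 0.15 (exact p = 0.80, adjusted 0.80). Dnajb1 minus Dnajb6 changed by -0.19 (exact p = 0.514, adjusted 0.80). A level of 1 probe set is not comparable with that of another, so only the changes between groups carry meaning. The direction of the first pair turned without rTF replicate 1 (-0.087) or rCPS1 replicate 4 (-0.016), that of Hsph1 without rTF replicate 1 (-0.14), and that of Dnajb1 without rTF replicate 2 (0.0030).

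Inducible and constitutive genes differed in their median spread between arrays of a group, although the classes overlapped. The within-group SD, pooled over both groups, had a median of 0.37 log2 units over the 9 inducible genes, 0.12 over the 6 constitutive genes and 0.22 over all genes. Hsph1 had an SD of 0.49, at the 95.2nd percentile of all genes, followed by Hspb8 (0.42), Hspb1 (0.42), Dnaja4 (0.38) and Hspa1a (0.37). These 5 of the 9 lay above the 75th percentile. All 6 constitutive genes lay below the median of all genes, from Hspa4 (0.081, 3.13rd percentile) to Dnajb6 (0.18, 35.2nd percentile). The inducible Dnajb4 (0.16, 28.0th percentile) lay below Dnajb6. The spread is a description of these arrays, without a test. Without rTF replicate 1, a setting chosen after seeing the data, the inducible median was 0.26, the constitutive median 0.11 and that of all genes 0.21. The SD of Hsph1 was then 0.20 and that of Hspa1b went from 0.27 to 0.12, so for these genes 1 array made most of the spread. Hspb8 (0.43) and Dnajb1 (0.30) kept theirs.

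**Figure D3:**
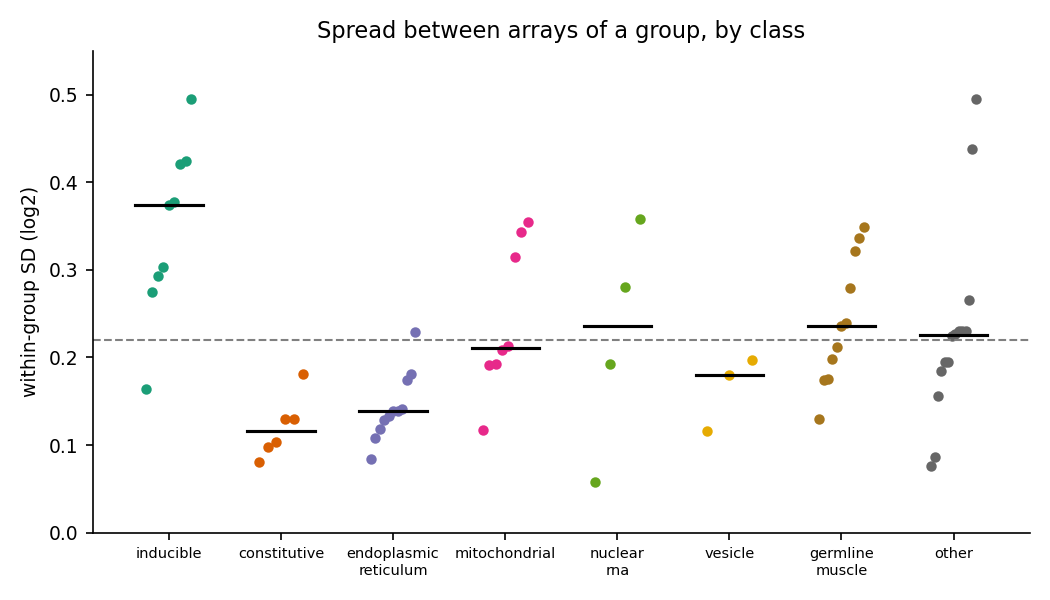
Each point is the SD (log2, vertical axis) of 1 member between arrays of a group, pooled over rTF and rCPS1; black bars are class medians and the dashed line is the median of all 22180 genes (0.22). The inducible median (0.37) is the highest of the 8 classes and the constitutive median (0.12) the lowest.

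The array in which each gene was lowest tells the same in counts. Of the 9 inducible genes 6 had their lowest value in rTF replicate 1 (66.7%), as had 16 of all 66 members (24.2%), 1 of 6 constitutive genes and 2879 of all genes (12.98%). This array was singled out after its values were seen. By family, 11 of the 25 Hsp genes and 5 of the 41 Dnaj genes were lowest there. The 6 were Hspa1a, Hspa1b, Hsph1, Hsp90aa1, Hspb1 and Dnaja4. The mean log2 level over the inducible class was 7.43 in rTF replicate 1, 8.10, 8.02 and 7.87 in the other rTF arrays, and 7.87, 8.14, 7.80 and 7.91 in rCPS1 replicates 1 to 4. The constitutive mean stayed between 8.72 and 8.86 and was also lowest in rTF replicate 1. So were the means of the endoplasmic reticulum class (7.93), the co-chaperones described below (7.30) and the cytosolic CCT folding ring (8.48). Of their genes 36.4%, 41.2% and 37.5% were lowest there. The mitochondrial, nuclear, vesicle, germ cell or muscle and remaining classes had their lowest mean in another array.

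Marker lists varied between arrays as well. The mean of 8 macrophage markers (Adgre1, Csf1r, Cd68, Clec4f, Vsig4, Marco, Timd4 and Cd5l) was 10.20, 9.71, 9.62 and 10.01 in rTF replicates 1 to 4 and 10.18, 9.71, 10.44 and 9.83 in rCPS1 replicates 1 to 4. It was highest in rCPS1 replicate 3, then in rTF replicate 1, rCPS1 replicate 1 and rTF replicate 4. These arrays also had the lowest inducible means (7.80, 7.43, 7.87 and 7.87 in that order), with rCPS1 replicate 4 next at 7.91. Within these arrays the 2 orders differed, and this was not a planned comparison. The mean of 7 sinusoidal endothelial markers was 11.42 in rTF replicate 1 and 11.51 to 11.63 elsewhere, and 5 of the 7 were lowest there. That of 12 immediate early genes, such as Fos and Jun, was 9.76 in rTF replicate 1 and 9.63 in rCPS1 replicate 3, against 9.91 to 10.11 in the other 6 arrays. The part of these lists in the chaperone values was not tested. In such mixed RNA, fewer cells of a type and less RNA per cell cannot be told apart.

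**Figure D4:**
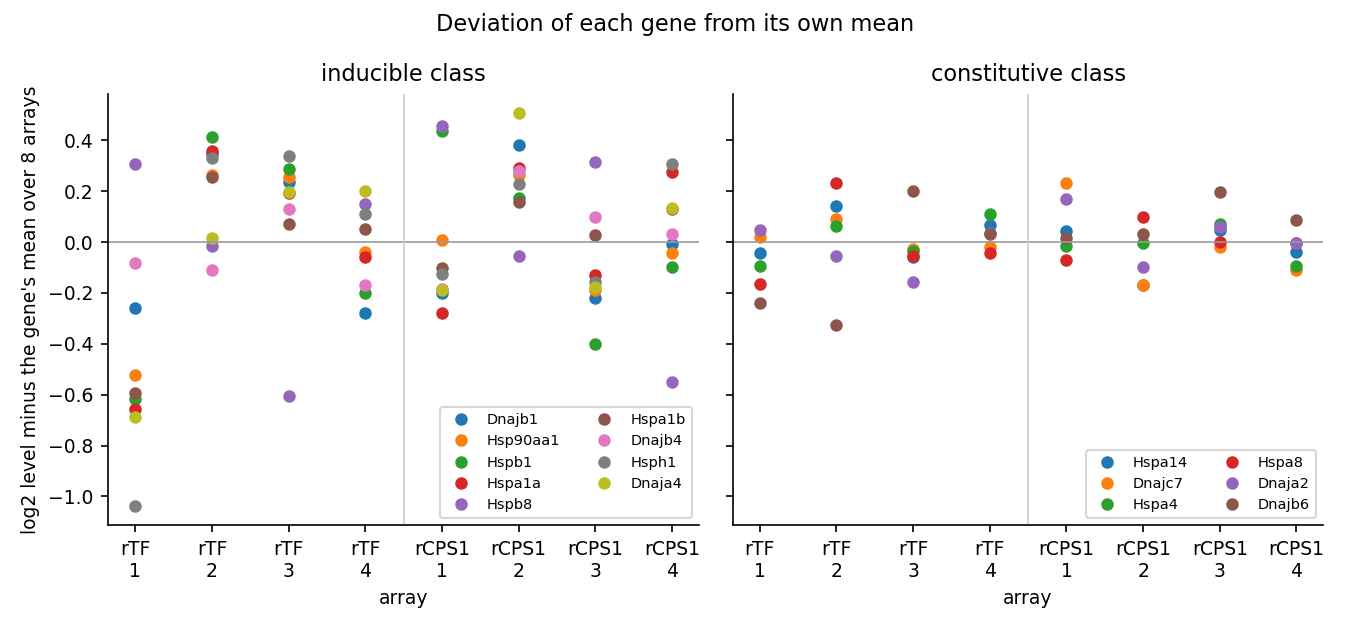
Log2 level of each gene minus its own mean over the 8 arrays (vertical axis), by array, for the 9 inducible genes (left) and 6 constitutive genes (right). In rTF replicate 1, 6 of the 9 inducible genes have their lowest value; Hspb8 lies above its mean there.

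Chaperones of mitochondria and of the endoplasmic reticulum were measured by 8 and 11 genes, and none had an unadjusted p under 0.05. Hspd1 (probe set 17223228, Hsp60) read 8.57, 9.62, 9.15 and 9.29 with rTF and 9.04, 8.75, 9.14 and 9.20 with rCPS1. Its partner Hspe1 (probe set 17212882, Hsp10) read 6.09, 7.04, 6.69 and 6.62 with rTF and 6.95, 6.52, 6.22 and 6.39 with rCPS1. Both genes of the shared promoter were lowest in rTF replicate 1 and highest in rTF replicate 2, with differences of -0.13 ± 0.21 and -0.094 ± 0.22 (SE). Hspa9, the mitochondrial Hsp70 (mortalin), stayed between 10.01 and 10.37 and differed by -0.0049 ± 0.11. Smallest in p among the mitochondrial genes were Dnajc30 (-0.26 ± 0.14, unadjusted p = 0.0939) and Dnajc15 (-0.18 ± 0.14), which sits at the protein import channel, and 6 of the 8 genes were lower, with a median of -0.055. That median was 0.026 without rTF replicate 2 and -0.14 without rTF replicate 1. A brighter row that Dnajc30 shares with another symbol, left out here, differed by -0.078.

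In the endoplasmic reticulum class 6 genes were higher and 5 lower, with a median difference of 0.020. This median ran from -0.049 (without rTF replicate 1) to 0.022 with 1 array left out, so it had no settled direction. Hspa5 (probe set 17370103, BiP), the Hsp70 of this compartment, read 10.05, 10.28, 10.32 and 10.32 with rTF and 10.22, 10.34, 10.26 and 10.40 with rCPS1, a difference of 0.063 ± 0.11 (SE). Dnajb9 (ERdj4), which feeds Hspa5 back onto the stress sensor IRE1, read 10.07, 9.92, 10.22 and 10.04 with rTF and 10.28, 10.51, 10.18 and 9.998 with rCPS1, a difference of 0.18 ± 0.13. Dnajb11 (ERdj3), a secreted partner of Hspa5, read 8.60, 9.25, 8.67 and 8.80 with rTF and 8.81, 8.54, 8.51 and 8.72 with rCPS1, a difference of -0.19 ± 0.16 that was -0.046 without rTF replicate 2. In all 3 the groups overlapped. Dnajc3 (p58IPK), which holds back the kinase PERK and carries the same promoter element as Hspa5, differed by -0.13 ± 0.14.

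Among the nuclear and ribosomal DnaJ genes all 4 measured were lower, with 0 under an unadjusted p of 0.05 and a median difference of -0.10. The direction rested on rTF replicate 2, without which the median was 0.029. Dnajc2 (probe set 17445869), a ribosome-associated J protein, was the only one of the 66 members whose groups did not overlap. It read 7.29, 7.42, 7.28 and 7.43 with rTF and 7.23, 7.20, 7.19 and 7.18 with rCPS1, so every rCPS1 array lay below every rTF array. The difference was -0.16 ± 0.098 (SE, unadjusted p = 0.139, adjusted p = 0.98 with limma), and the moderated test lends this gene, whose own SD was 0.058, spread from all genes. Dnajc9, a histone chaperone of dividing cells, read 6.86, 7.65, 6.89 and 7.24 with rTF and 7.08, 6.80, 7.11 and 6.94 with rCPS1, a difference of -0.18 ± 0.18 that was -0.013 without rTF replicate 2. Of the 3 vesicle genes, Dnajc13 differed by 0.18 ± 0.14 (0.060 without rTF replicate 2), Dnajc5 by 0.042 ± 0.11 and the auxilin gene Dnajc6 by -0.073 ± 0.14.

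The single member under an unadjusted p of 0.05 is no chaperone by role. Hspbap1 (probe set 17325261), named for binding Hspb1 and taken in by its symbol, read 5.39, 5.14, 5.11 and 5.29 with rTF and 4.77, 5.17, 4.82 and 4.997 with rCPS1. The groups overlapped by 1 rCPS1 array, and the difference was -0.29 ± 0.13 (SE, unadjusted p = 0.0429, adjusted p = 0.98 with limma). Hspa12a (probe set 17365992), a distant Hsp70 relative, had the largest difference of any member over all 8 arrays, at 0.48 ± 0.29. Without rTF replicate 3 it was 0.22, smaller in size than those of Dnajc12 (-0.35), Dnajb2 (-0.34) and Hspbap1 (-0.33). It read 4.50, 5.05, 3.75 and 4.91 with rTF and 5.46, 4.69, 4.73 and 5.28 with rCPS1, with overlapping groups and a span of 1.70 log2 units.

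Further members with larger differences had more specialised roles. Dnajb2, a neuronal DnaJ, differed by -0.28 ± 0.16 (SE), Dnajc12, a partner of the aromatic amino acid hydroxylases, by -0.25 ± 0.15, Hspa4l by -0.21 ± 0.14 and Dnajc18 by 0.14 ± 0.10. Genes known from germ cells or muscle were measured by 11 members, of which 3 lay above the median of all array rows (3.60): Hspa1l, Hspa2 and Hspb6. Hspa2, the testis Hsp70, read 7.13, 7.05, 7.24 and 6.88 with rTF and 7.17, 7.78, 6.92 and 7.15 with rCPS1, a difference of 0.18 ± 0.18 that was 0.0088 without rCPS1 replicate 2. Below that median, Hspb9 differed by 0.24 ± 0.12 (unadjusted p = 0.0661) and Hspb7 by -0.26 ± 0.21. Over all classes 56 of the 66 members lay above the median of all rows.

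Partners of the chaperones outside the family gave no call either. Of 19 listed co-chaperones and related genes 17 were measured, 9 higher and 8 lower with rCPS1, with 0 under an unadjusted p of 0.05 and a median log2 difference of 1.8e-05. The gene for HSF1 itself was not analysed here. Bag3, an HSF1 target that links Hsp70 to the Hspb proteins, read 9.90, 10.31, 10.56 and 10.24 with rTF and 10.35, 10.57, 9.91 and 10.56 with rCPS1. Its lowest arrays were rTF replicate 1 and rCPS1 replicate 3, and the groups differed by 0.095 ± 0.18 (SE). Hsp90b1 (GRP94), the Hsp90 of the endoplasmic reticulum, read 11.35, 11.93, 11.55 and 11.78 with rTF and 11.54, 11.40, 11.54 and 11.63 with rCPS1, a difference of -0.13 ± 0.14. The largest in the list was Hyou1, another exchange factor of that compartment, at -0.40 ± 0.21 (unadjusted p = 0.0835), named after its value was seen. The 8 genes of the cytosolic CCT folding ring were 4 higher and 4 lower, with differences from -0.11 to 0.057.

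Markers of other blood cells gave larger differences than the chaperones, although none passed the adjusted test. All 7 neutrophil markers were lower with rCPS1 with an unadjusted p under 0.05, and their mean lay between 7.003 and 7.96 in the rTF arrays and between 5.50 and 6.67 in the rCPS1 arrays. Of 6 monocyte markers 5 were lower at that threshold (means 8.63 to 9.24 with rTF, 7.88 to 8.10 with rCPS1), and of 7 T and NK cell markers 2 (6.07 to 7.21 and 5.92 to 6.31). Of 8 hepatocyte markers 0 passed that threshold (7.72 to 8.32 and 7.33 to 8.08). None of these genes had an adjusted p under 0.05 with limma, and the lists were written with results of these arrays known. All 8 macrophage markers and all 7 sinusoidal endothelial markers lay above the median of all rows. The part of these cells in the chaperone values was not tested.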

How the data were processed

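The authors deposited log2 expression values, the output of RMA, which subtracts background, equalizes the arrays' distributions and summarizes probes. The submitters' processing notes give RMA and limma with no version. A change common to most genes would thus be removed. The isolation of macrophages, its time after acetaminophen and the genome build are not given in the sources used here. Of 41345 rows, 23521 carried a single gene symbol, 1814 several and 16010 none, by the platform's annotation. Each of 22180 genes was read from its row with the highest 8-array mean, with no filter on dim rows. Groups and replicate numbers came from the sample titles. Groups were tested across all genes by lmFit and eBayes of limma 3.58.1 (R 4.3.3, two-sided, no covariate) with Benjamini-Hochberg adjustment at 0.05. The fit was also run on simulated data with independent noise for each gene and array. That run did not cover a shift of an array shared by many genes, and its result is not given here. The number of arrays limits the precision.

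Members, classes, markers and tests were chosen with earlier results of these data known. The genes named were all inducible and constitutive members, members with an unadjusted p under 0.05 or groups that do not overlap, the 6 highest and 6 lowest differences above the median row, the 2 of smallest p in each other class, and Bag3 and Hsp90b1. Other genes of the family given with values, such as Hspd1, Hspe1, Hspa5, Hspa9, Dnajc3 and Dnajc5, were chosen after their values were seen. Alternatives were a filter on dim rows, trended and robust variance, array weights (statmod 1.5.0) and the replicate block. Others were quantile normalization, the mean of all rows, and each array left out. A further alternative placed Hspd1 and Hspe1, both lower with rCPS1, in the inducible class. The inducible median difference was then 0.079, beside 0.082 without them, and the mitochondrial median -0.010, beside -0.055.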

Additional observations from a re-analysis of the deposited data

Results flagged for a closer look

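Dixon's ratio was computed for the extreme array of each group of 4, over the 66 members, the 3 pairs and the inducible and constitutive means. An array was past the critical value in 7 of 142 cases, against 7.1 expected by chance at 1 in 20. Hsph1 was at 8.42 (log2) in rTF replicate 1, with the other rTF arrays at 9.57 to 9.80, and this was the only one of the 7 in that array. The synaptic vesicle gene Dnajc5 was at 7.44 in rTF replicate 2 (others 7.65 to 7.68). In rCPS1 replicate 3, Hspb11 was at 3.37 (3.87 to 3.92) and Dnajc4 at 6.66 (6.94 to 6.99). Dnajc25 was at 5.12 in rCPS1 replicate 2 (5.21 to 5.22), Dnajc6 at 3.40 in rCPS1 replicate 1 (3.02 to 3.07) and Dnajc5b at 3.26 in rCPS1 replicate 4 (2.40 to 2.53).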

How the results depend on the processing

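No alternative brought a member to an adjusted p under 0.05, and with 1 array left out the count stayed at 0. The count at an unadjusted p under 0.05, 1 in the main setting, was 0 with trended and robust variance, with the replicate block and with quantile normalization, and 0 to 2 with 1 array left out. Nothing in the sample titles says that the replicate numbers pair the arrays. Deviations of same-numbered arrays from their group means correlated at -0.124, -0.033, -0.005 and 0.025, which gives no sign of pairing but cannot exclude it. The block counts say nothing of weaker effects. With 1 array left out the pair differences ran from -0.087 to 0.16 (Hspa1a minus Hspa8), -0.14 to 0.30 (Hsph1 minus Hspa4) and -0.34 to 0.0030 (Dnajb1 minus Dnajb6). Of 34 named genes 22 kept their sign under every left-out array, though not their size: Hspa2 ran from 0.0088 to 0.29, Dnajc9 from -0.28 to -0.013, Dnajb11 from -0.26 to -0.046, Dnajc13 from 0.060 to 0.25 and Hspa12a from 0.22 to 0.65. The other 12 ran from -0.069 to 0.23 (Dnaja4), -0.15 to 0.088 (Dnajb1, which was 0.049 with array weights), -0.11 to 0.019 (Dnajc7), -0.15 to 0.11 (Hsp90aa1), -0.13 to 0.21 (Hspa1a), -0.074 to 0.21 (Hspa1b), -0.057 to 0.010 (Hspa4), -0.038 to 0.094 (Hspa8), -0.14 to 0.20 (Hspb1), -0.11 to 0.28 (Hspb8), -0.20 to 0.26 (Hsph1) and -0.024 to 0.24 (Bag3). Many of the 34 were named for a large difference or a small p, which favours a kept sign. The count of 22 is therefore no measure of stability. Of the inducible and constitutive members, named whatever their values, only Dnaja2, Dnajb4, Dnajb6 and Hspa14 kept their sign. The cause of the turns was not tested. With fewer arrays a setting has less precision.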
